A study of Rattus norvegicus with 12 samples.

Results

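The genes described here encode 5 proteins of the axonal growth cone, the moving tip of an extending axon: Gap43, Basp1, Stmn1, Stmn2 and Stmn3. They were taken by gene name from the 35287 gene names printed on a rat expression array, where 6 probes carried these 5 names. Male Sprague-Dawley rats lost a segment of 1 cm from the left sciatic nerve at the mid-thigh, and their dorsal root ganglia, where the sensory neurons of that nerve have their cell bodies, were examined 0.5, 3, 6 or 9 h later. The study used 24 rats, 6 at each time, and hybridised 3 arrays of 1 colour per time. All 4 groups carried the injury, no uninjured group is labelled, and the age of the rats is not stated. Since nothing in the labels links single rats to arrays, the p-values reflect only the scatter among these 12 samples, and some of that scatter may be technical.

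GAP-43 is a membrane-bound phosphoprotein of growth cones that binds calmodulin and is a substrate of protein kinase C. BASP1, also called CAP-23 or NAP-22, lies at the inner face of the same membrane and, like GAP-43, acts on cortical actin. Stathmins bind tubulin dimers and promote the disassembly of microtubules until phosphorylation releases the tubulin. Stmn1 is the widely expressed founding member, Stmn2 encodes SCG10 and Stmn3 encodes SCLIP, both largely neuronal. In sensory neurons Gap43 and Stmn2 are known as genes of axon growth and regeneration.

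The sequences on the array decide which transcripts were seen, so the probes are given first, with coordinates on the rat assembly rn4 as the files give them. Each is 60 bases long, and only the first 30 bases are printed for the 4 probes that start at transcript base 699 or later. The Gap43 probe (chr11:60083891-60083950) was spotted 10 times on each array, and the others once. The accessions of Gap43, Basp1, Stmn1 and Stmn2 were found in the current RefSeq gene table (assembly GRCr8), and Stmn3 was found there by its symbol. No gene annotation of rn4 was used here, so exons and untranslated regions are not named.
Gap43, from transcript base 1402: gcaaatgtgccaattagcgtaacttaaggc
Basp1, from transcript base 187: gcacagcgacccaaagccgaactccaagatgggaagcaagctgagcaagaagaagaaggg
Stmn1, from transcript base 413: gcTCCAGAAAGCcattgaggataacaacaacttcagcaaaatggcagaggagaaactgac
Stmn1, from transcript base 699: tccctgacaaatattctagaagctgatgta
Stmn2, from transcript base 1420: catgggtgacgatgttcgttttaagctttt
Stmn3, from transcript base 785: caagaacattttccggttttgtttttgttt
Stmn4, from transcript base 547: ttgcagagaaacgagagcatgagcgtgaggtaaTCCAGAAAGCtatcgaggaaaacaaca
RGD1565395, from transcript base 356: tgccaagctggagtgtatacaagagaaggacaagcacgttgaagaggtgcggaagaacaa
Stmn4 and RGD1565395, a predicted gene that the files describe as similar to stathmin 1, are shown for comparison. Capitals mark the longest identical run that any pair of these 8 probes shared, 10 bases, between the Stmn1 probe from base 413 and the Stmn4 probe. Likeness with mismatches, which goes on past the capitals in this pair, was not measured.

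The Stmn1 probes lie at chr5:153231119-153231178 (from base 413) and chr5:153231731-153231789 (from base 699). The files assign the probe from base 413 to the predicted transcript behind RGD1565395 as well as to Stmn1, so its signal could come from either. The probe from base 699 carries no such second assignment, and it represents Stmn1 below because its mean signal was the higher of the pair. The Stmn2 probe lies at chr2:95285271-95285330 and the Stmn3 probe at chr3:170447030-170447089. The Basp1 probe was placed at chr2:76878396-76927536, a span of 49141 bases for a probe of 60, so its match is split over the genome.

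Levels are log2 signals relative to the 75th percentile of the array, which is set to 0. A higher level of one probe over another does not show a more abundant messenger, and only differences of the same probe between times are compared. On each of the 12 arrays all 6 probes stood well above background, and none was saturated. Signals of every member but Basp1 were scaled up by the scanner software from a second, low-gain scan on all 12 arrays. The later arrays had 82.3 to 85.3% of all probes well above background, against 63.2 to 67.5% for the 0.5 h arrays. The 0.5 h arrays came from 1 slide and 1 scan day, and the 9 h arrays from another slide and day, so in comparisons with these times slide, scan day and time cannot be told apart. The 3 h and 6 h arrays lay on 3 slides scanned on 1 day, and no slide held arrays of both times. Slide and time therefore cannot be told apart in that comparison either.

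Stmn1 was the only member to pass an F test over the 4 times in the reported fit. Slide and time cannot be told apart in this course. Its level was 5.41, 5.28 and 5.33 at 0.5 h, 5.25, 5.26 and 5.15 at 3 h, 5.02, 5.03 and 5.09 at 6 h, and 4.99, 4.94 and 4.91 at 9 h. Every array of a later time lay below every array of the time before it. The F test over the 4 times, in a limma fit across all 29623 genes with Benjamini-Hochberg adjustment, gave an adjusted p of 0.00193. By that test 1 of the 5 members differed over the 4 times, where 43.6% of all genes did.

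At 9 h Stmn1 averaged 4.95 ± 0.04, against 5.34 ± 0.07 at 0.5 h (SD, n = 3 arrays each). The difference was -0.39 on the log2 scale (95% interval -0.52 to -0.26, limma adjusted p = 0.00101), or 0.761 times the 0.5 h level. At 6 h it averaged 5.05 ± 0.04, and the difference from 0.5 h was -0.29 (-0.42 to -0.16, limma adjusted p = 0.0119). The 6 h call ended under normexp background correction (-0.41, adjusted p = 0.395) and under scaling by the median (-0.20, adjusted p = 0.0872), whereas the 9 h call held under each alternative run. With normexp the 9 h call was close to the threshold (-0.53, limma adjusted p = 0.0477), and the F test did not pass (limma adjusted p = 0.0696). In the reported fit the 3 h difference of -0.12 did not pass (limma adjusted p = 0.181).

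The steps between neighbouring times were smaller, and in the reported fit none passed the test. For 6 h against 3 h, arrays scanned on 1 day, the difference was -0.17 (limma adjusted p = 0.0893). It passed with slide as a random block (limma adjusted p = 0.0158) and with the trend and robust variance model (limma adjusted p = 0.0376). Each slide held arrays of only 1 time, so the slide block cannot remove a slide effect from a difference between times. For 9 h against 6 h the difference was -0.10 (limma adjusted p = 0.227), and it passed under median scaling (-0.31, adjusted p = 0.007). In the reported fit the Stmn1 differences that passed were those of 6 h and 9 h against 0.5 h.

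The second Stmn1 probe, from base 413, gave 3.85, 3.71 and 3.57 at 9 h, against 3.93, 3.92 and 3.96 at 0.5 h. Its 9 h arrays also lay below all 0.5 h arrays, with a wider spread. With every kept probe adjusted on its own, the 9 h difference was -0.23 (95% interval -0.39 to -0.07, limma adjusted p = 0.0346). Its 6 h difference of -0.16 did not pass (limma adjusted p = 0.189). The probe of RGD1565395, chosen after its values were seen, read 3.76, 3.83 and 3.73 at 9 h, against 4.02, 3.97 and 3.88 at 0.5 h. That difference was -0.18 (limma adjusted p = 0.0327, each probe on its own). These groups did not overlap either, as was so for 48.7% of all genes in that comparison. In the fit over genes the RGD1565395 call ended in 4 of 12 fits without 1 array (limma adjusted p up to 0.0998).

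**Figure D1:**
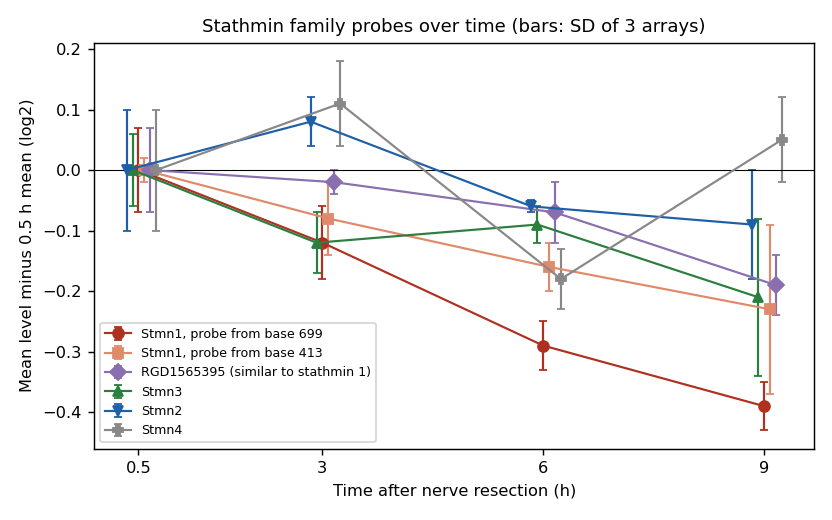
Mean level of each stathmin family probe minus its own 0.5 h mean (log2, vertical axis) against hours after nerve resection (horizontal axis), with bars for the SD of 3 arrays. The Stmn1 probe from base 699 reached 4.95 at 9 h against 5.34 at 0.5 h and was the lowest of those drawn at 6 and 9 h, and Stmn4 lay above its 0.5 h mean at 3 and 9 h.

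Stmn3 was lower at 9 h than at 0.5 h, but its call was close to the threshold and was lost in several alternative fits. Its level was 6.24, 6.30 and 6.37 at 0.5 h, 6.23, 6.15 and 6.15 at 3 h, 6.20, 6.25 and 6.19 at 6 h, and 6.22, 5.96 and 6.09 at 9 h. Each 9 h array lay below each 0.5 h array, the nearest pair being 6.22 and 6.24. The mean was 6.09 ± 0.13 at 9 h, against 6.30 ± 0.06 at 0.5 h (SD, n = 3 each), a difference of -0.22 (95% interval -0.38 to -0.05, limma adjusted p = 0.0435). Leaving out any one array ended this call in 11 of 12 fits (adjusted p up to 0.143), and it held without 9 h replicate 1 (adjusted p = 0.0151). Over all 4 times the limma F test did not pass (adjusted p = 0.132).

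Stmn2 did not pass in any comparison in the reported fit. It read 6.55, 6.74 and 6.69 at 0.5 h, 6.78, 6.75 and 6.70 at 3 h, 6.59, 6.61 and 6.60 at 6 h, and 6.55, 6.48 and 6.67 at 9 h. All 6 h arrays lay below all 3 h arrays, with a difference of -0.14 (95% interval -0.29 to 0.01, limma adjusted p = 0.221). At 9 h against 0.5 h the groups overlapped and the difference was -0.09 (-0.24 to 0.06, adjusted p = 0.316 by limma). Under median scaling that difference was -0.21 (adjusted p = 0.0608), and the one of 9 h against 6 h passed (-0.24, adjusted p = 0.0325).

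Gap43 also passed in no comparison of the reported fit. It read 5.11, 5.30 and 5.26 at 0.5 h, 5.35, 5.42 and 5.30 at 3 h, 5.31, 5.19 and 5.15 at 6 h, and 5.54, 5.27 and 5.36 at 9 h. The highest single value was a 9 h array, but the 9 h and 0.5 h arrays overlapped. The mean was 5.39 ± 0.13 at 9 h, against 5.22 ± 0.10 at 0.5 h (SD, n = 3 each), a difference of 0.17 (95% interval -0.02 to 0.36, limma adjusted p = 0.154). With slide as a random block the differences of 9 h passed, both against 0.5 h (limma adjusted p = 0.0237) and against 6 h (limma adjusted p = 0.0429). That block estimated a negative correlation between arrays of a slide (-0.255) and cannot remove a slide effect, since each slide held 1 time. The sign of the small 9 h difference from 0.5 h turned under normexp (-0.06). That of 9 h against 6 h (0.17, adjusted p = 0.172 by limma) turned under normexp (-0.02) and median scaling (-0.04).

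The 10 Gap43 spots show how far spots on the same array differed. Within an array the spots varied with an SD of 0.03 to 0.10, pooled 0.06. The array means within a time varied with a pooled SD of 0.10. These are unlike measures, the former of single spots with outliers left out, the latter of means over spots. Spots of an array share its labelling and hybridisation, so their SD does not cover errors of those steps.

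Basp1 passed in no comparison of the reported fit. It read 1.29, 1.43 and 1.24 at 0.5 h, 1.34, 1.07 and 1.50 at 3 h, 1.23, 1.30 and 1.10 at 6 h, and 1.34, 1.30 and 1.40 at 9 h. The 3 h arrays spanned the values of every other time. The 9 h difference from 0.5 h was 0.03 (95% interval -0.21 to 0.27, limma adjusted p = 0.847), and it turned to -0.04 under normexp and -0.08 under median scaling. Over the 4 times the limma F test gave an adjusted p of 0.653.

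**Figure D2:**
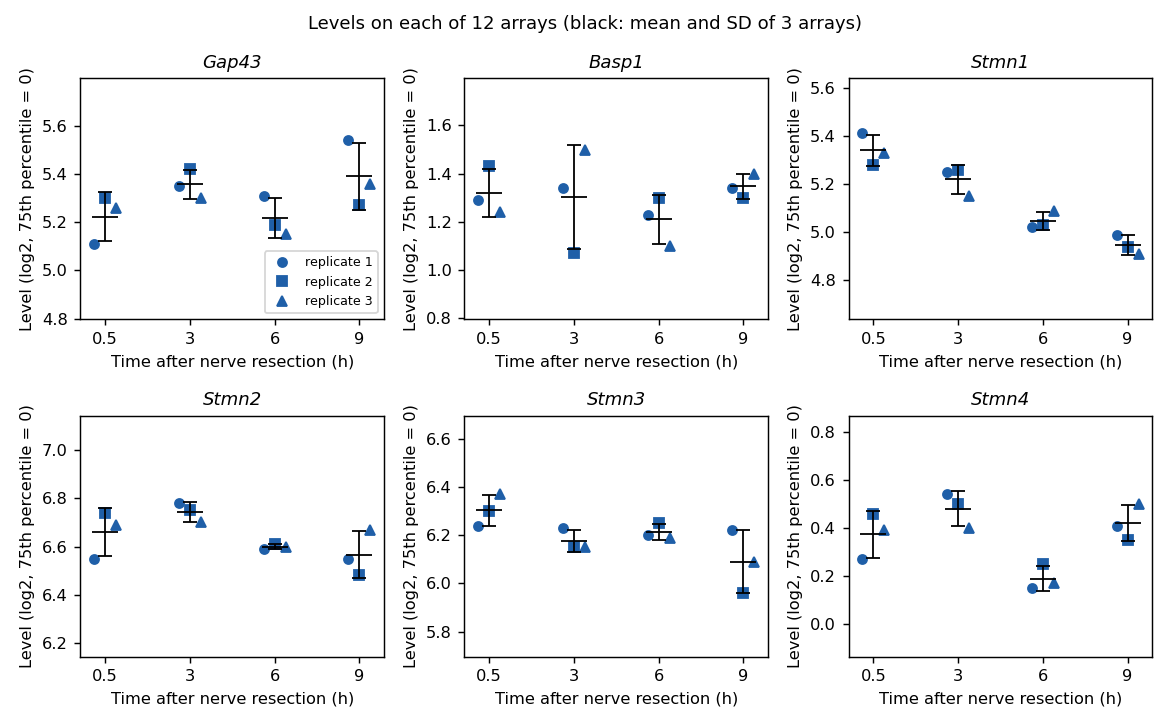
Level on each array (log2, vertical axis, where 0 is the array's 75th percentile) against hours after nerve resection (horizontal axis) for the 5 members and Stmn4, all panels on the same scale, with the mean and SD of 3 arrays in black. The Stmn1 arrays step down from one time to the next without overlap, and the Gap43 and Basp1 arrays overlap between 9 h and 0.5 h.

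Counted over the members, 0 of 5 were called at 3 h against 0.5 h, where 22.7% of all genes were called. None had an unadjusted p under 0.05 in that limma fit (0 of 5), although 3 had arrays that did not overlap (40.7% of all genes). At 6 h against 0.5 h 1 of 5 was called, and it was lower, where 13.4% of all genes were called and 9.31% were called lower, and 1 did not overlap (37.1% of all genes). At 9 h against 0.5 h 2 of 5 were called, both lower, where 33.4% of all genes were called and 10.7% were called lower. Their 2 sets of arrays were also those that did not overlap (48.7% of all genes). For 6 h against 3 h 0 of 5 were called, with 1 at an unadjusted p under 0.05 in limma, where 10.4% of all genes were called, and 2 did not overlap (35% of all genes). For 9 h against 6 h 0 of 5 were called, with 0 at an unadjusted p under 0.05 in limma, where 25.1% of all genes were called, and 2 did not overlap (44.3% of all genes). Counts over 5 genes are coarse, and they were not tested against the background shares.

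At 9 h against 0.5 h the median difference was -0.09 for the 5 members and 0.10 for all genes. At 9 h against 6 h the medians were -0.03 for the members and 0.11 for all genes. The median of all genes depends on the scaling, and for 9 h against 0.5 h it was 0.04 after quantile scaling, -0.01 after median scaling and 0.32 with normexp. Relative to the median gene, Stmn1 was lower at 9 h under each of these settings. The calls over all genes at 9 h against 0.5 h were 68% higher, but 53.5% after quantile scaling, 46.8% after median scaling and 16.8% with normexp.

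**Figure D3:**
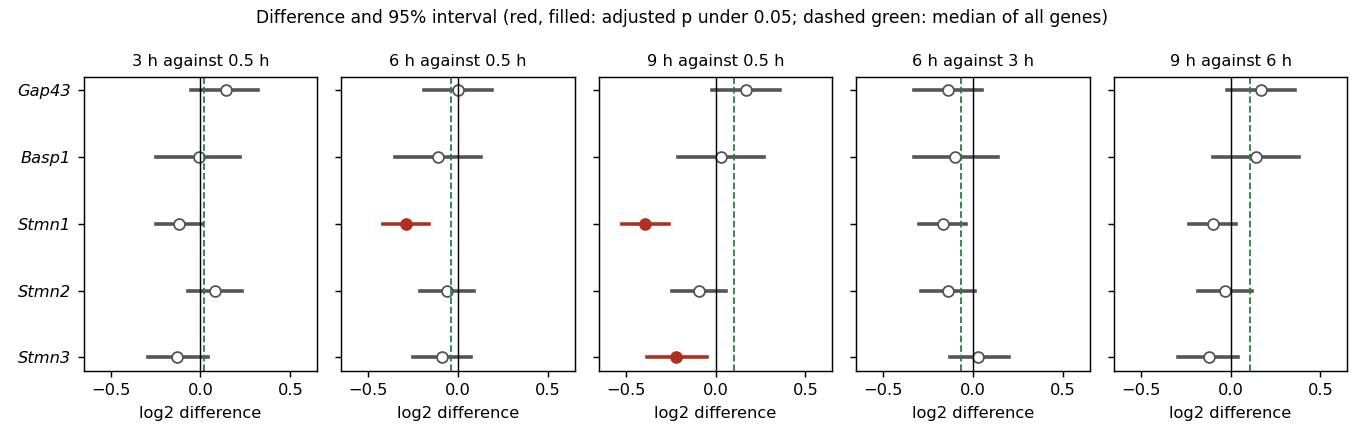
Difference between times for each member (log2, horizontal axes) with its 95% interval, in 5 comparisons. Red filled points passed an adjusted p of 0.05, namely Stmn1 at 6 and 9 h and Stmn3 at 9 h against 0.5 h, and the dashed line is the median of all 29623 genes.

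**Figure D4:**
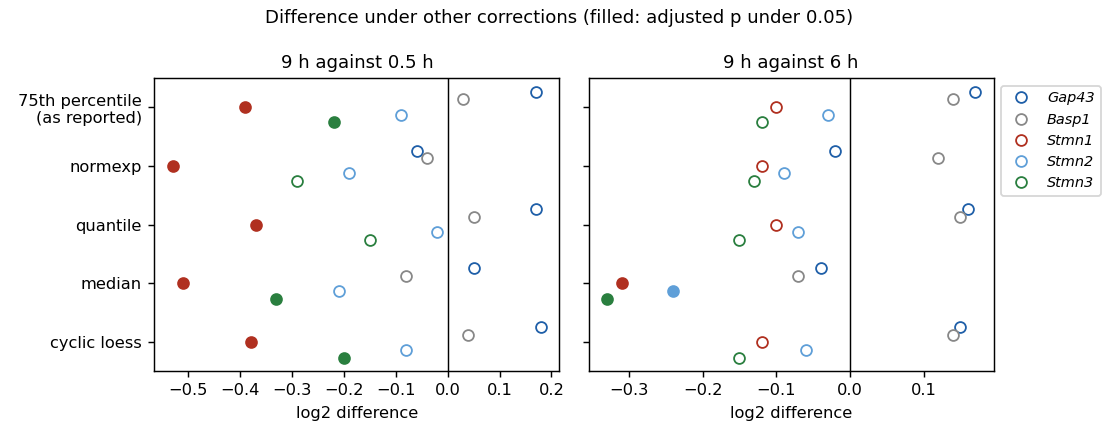
Difference of each member (log2, horizontal axes) for the later comparison pairs, 9 h against 0.5 h (left) and 9 h against 6 h (right), under 5 background corrections and scalings (rows), filled where the adjusted p was under 0.05. Stmn1 is filled in every row at 9 h against 0.5 h, and under median scaling all members lie further left than as reported, with Stmn1, Stmn2 and Stmn3 filled at 9 h against 6 h.

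The RNA came from whole ganglia, so fewer cells of a type and less RNA per cell cannot be told apart. Of 17 neuron markers 16 were measured, all of them detected on every array. The mean of their centred levels lay between -0.01 and 0.05 on the 9 h arrays, against -0.02 to 0.08 on the 0.5 h arrays. In that comparison 0 of 16 were called by limma (4 at an unadjusted p under 0.05). Of all genes 33.4% were called there, 22.7% higher and 10.7% lower. All 10 satellite glia markers were measured, and their centred mean lay between -0.02 and 0.13 at 9 h, against -0.01 to 0.11 at 0.5 h. Of these markers 1 was called higher and 1 lower. Of 8 markers of Schwann cell myelin 2 were called, both lower. The mean of the 8 lay between -0.10 and 0.26 at 9 h, against -0.02 to 0.50 at 0.5 h. Of 7 endothelium markers 2 were called, both higher. The mean of the 7 lay between 0.16 and 0.33 at 9 h, against -0.13 to 0.05 at 0.5 h. Of 5 lymphocyte markers 1 was called higher. The mean of the 5 lay between 0.06 and 0.40 at 9 h, against -0.53 to -0.21 at 0.5 h, where 2 or 3 stood well above background. Of 6 fat markers 1 was called higher. The mean of the 6 lay between -0.55 and 1.30 at 9 h, against -0.98 to -0.64 at 0.5 h. The endothelium, lymphocyte, fat and neutrophil means did not overlap between these times. Those of fibroblast, macrophage and red blood cell markers overlapped, and of these lists only 1 macrophage marker was called. Markers of skeletal muscle, a tissue outside the ganglion, differed widely between arrays, from -0.93 to 0.84 at 9 h, against -1.59 to -0.14 at 0.5 h, and 0 of 14 were called by limma (0 at an unadjusted p under 0.05). Neutrophil markers lay between 0.32 and 0.82 at 9 h, against -0.86 to 0.26 at 0.5 h, where only 3 or 4 of the 7 stood well above background. By limma 0 of 7 were called (0 at an unadjusted p under 0.05), and at 6 h the mean ran from -0.43 to 2.27, the highest value being 1 array. The part of these cells in the levels of Stmn1 and Stmn3 was not tested.

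Stmn4, which encodes the stathmin RB3 and is not among the 5, took another course. It read 0.27, 0.46 and 0.39 at 0.5 h, 0.54, 0.50 and 0.40 at 3 h, 0.15, 0.25 and 0.17 at 6 h, and 0.41, 0.35 and 0.50 at 9 h. All 6 h arrays were below all arrays of the other times. It was lower at 6 h than at 3 h, with a difference of -0.29 (limma adjusted p = 0.0268) and higher at 9 h than at 6 h by 0.23 (limma adjusted p = 0.034). The second of these was 0.03 under median scaling (adjusted p = 0.823).

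Other lists were read beside the members at 9 h against 0.5 h, where 22.7% of all genes were called higher and 10.7% lower, with a median of 0.10. Of 31 measured proteins of the growth cone's cytoskeleton 1 rose and 7 fell. Without 1 array at a time the number that rose was 0 to 3 and the number that fell 2 to 7, and with slide as a random block 8 rose. Over the alternatives that left no array out, 0 to 8 rose and 1 to 10 fell. Tmsb10, a thymosin that binds actin monomers, differed by -0.53 (limma adjusted p = 0.00318), and Map1b, a microtubule-associated protein, by -0.39 (limma adjusted p = 0.00199). The other 4 probes of Map1b gave -0.54, which passed, and -0.30, 0.02 and 0.06, which did not, and the mean of its probes, with a difference of -0.23, did not pass. Evl, an actin regulator of the Ena/VASP family, was lower, with a difference of -0.29 (limma adjusted p = 0.0375) and Clasp2, which binds growing microtubule ends, higher by 0.24 (limma adjusted p = 0.041). Each of these 2 calls ended in 7 of 12 fits without 1 array. The median of this list was 0.06, against 0.10 for all genes, and the number that fell was 1 with normexp, 2 with only those times fitted, 3 with a replicate block and 4 when the probes of a gene were averaged. The tubulin genes Tubb3 (0.19, adjusted p = 0.165 in limma) and Tubb2b (0.08, adjusted p = 0.329) did not pass.

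Of 10 measured proteins of the GAP-43 and MARCKS kind, which tie actin or calmodulin to the membrane, 1 rose and 1 fell at 9 h against 0.5 h, with a median of 0.09. Of all genes 22.7% were called higher and 10.7% lower in this comparison. Add2, a subunit of the spectrin- and actin-binding protein adducin, differed by -0.51 (limma adjusted p = 0.00735), but its second probe gave -0.25 (adjusted p = 0.528 in limma). Gprin2 was called higher but did not stand well above background at 0.5 h on any array, so no fold is given for it. Marcksl1, the MARCKS-like protein, was lower at 3 h than at 0.5 h, with a difference of -0.98 (limma adjusted p = 0.00711), and its 9 h difference of -0.47 did not pass (adjusted p = 0.0938 in limma).

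Among 28 enzymes and messenger-binding proteins known to act on GAP-43 or stathmins, 3 rose and 2 fell at 9 h against 0.5 h, with a median of -0.04. The shares over all genes were again 22.7% called higher and 10.7% lower. Cdk5, a neuronal kinase that phosphorylates stathmins, was higher by 0.35 (limma adjusted p = 0.0107), and Camk2a, a subunit of a calmodulin-dependent kinase, by 0.73 (limma adjusted p = 0.00521). Khsrp, which binds AU-rich messengers, was higher by 0.29 (limma adjusted p = 0.0451), a call that ended in 8 of 12 fits without 1 array. Zdhhc17, a palmitoyltransferase, was lower, with a difference of -0.77 (limma adjusted p = 0.00428), although its second probe gave 0.08 (adjusted p = 0.405 in limma). Of 12 adhesion and receptor proteins 1 fell, the cell adhesion molecule Alcam, with a difference of -0.45 (limma adjusted p = 0.00174), and its second probe gave -0.33 (limma adjusted p = 0.00465).

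Of 27 measured regeneration-associated genes 9 rose and 1 fell at 9 h against 0.5 h, where 33.4% of all genes were called, and their median was 0.21. The list was not tested against other genes, and the 4 described next were named for the size of their change. Atf3, a transcription factor induced in injured sensory neurons, read 3.63, 3.41 and 3.64 at 9 h, against 1.82, 1.18 and 2.17 at 0.5 h. It was higher by 1.83 (limma adjusted p = 0.000381), and Sox11, a transcription factor of growing neurons, by 1.55 (limma adjusted p = 0.000231). Reg3b, a secreted protein made after nerve injury, was higher by 1.65 (limma adjusted p = 0.00179). Mapt was higher by 1.15 (limma adjusted p = 0.0302), but its second probe gave 0.11 (adjusted p = 0.27 in limma). The Mapt call ended in 7 of 12 fits without 1 array. The number of genes of this list that rose was 3 with normexp and up to 13 under the other alternatives.

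The genes whose levels ran most like each member's over the 12 arrays were found by Pearson's r among 10600 named genes detected on every array. The values share arrays, slides and times and are a description. For Stmn1 they were Mras (r = 0.974), Trim44 (0.963) and Mpp5 (0.959). Mras, a small GTPase, averaged 1.93 at 0.5 h, 1.72 at 3 h, 1.44 at 6 h and 1.30 at 9 h. For Stmn3 they were Cdh8 (0.963), Cltc (0.954) and Hint1 (0.916). For Gap43 they included Zfp428 (0.948) and Samd14 (0.903), for Stmn2 Fam69a (0.921), St6galnac3 (0.911) and Tspan2 (0.909), and for Basp1 Kcnf1 (0.929), Rgs3 (0.917) and Pcsk2 (0.908). Between members, after each time's mean was taken off, r ran from -0.71 (Basp1 and Stmn1) to 0.68 (Gap43 and Stmn3) over the 12 arrays.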

How the data were processed

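Ganglion RNA from 4 times, 3 arrays each, was measured on 1-colour arrays. The authors deposited linear intensity values for each spot, background-subtracted by Agilent Feature Extraction 10.5.1.1, per the file headers. Their series-wide table holds the same intensity values (largest difference 0). RNA was amplified and labelled with Cy3, per the labels' protocols, and no scaling between arrays is stated there.

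The log2 signal was reduced by each array's 75th percentile over spots that are not controls, outlier spots were then left out, and the spots of each probe averaged. A probe was kept if it stood well above background on every array of 1 or more times (34837 of 41012), and the brightest stood for each of 29623 genes. The other 2 ways of taking the percentile that were run had been tried first, with their results seen, before this one was kept because it returned the counts of an earlier analysis of these data. Tests came from limma 3.58.1 (R 4.3.3) on the time means of 12 arrays, with Benjamini-Hochberg adjustment per comparison and a threshold of 0.05. The script was tested on simulated data.

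Named genes were the members, the stathmin family, up to 4 called genes per list and comparison whose arrays did not overlap, by size, and the 3 genes most alike each member, of which 1 is not reported here. Tubb3, Tubb2b, the 9 h value of Marcksl1 and RGD1565395 were added after their values were seen. The members and lists were chosen with earlier results of these data known. Alternatives covered background correction, scaling, the probe filter and rule, the samples fitted, the variance model, slide and replicate blocks, and each array left out. No pairing of arrays by replicate number was evident. Deviations from the time means correlated between -0.13 and 0.22 for the same number and between -0.23 and 0.20 for different numbers. No count or depth exists for arrays, and 3 arrays per time limit the precision.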

Additional observations from a re-analysis of the deposited data

How the results depend on the processing

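Stmn1 at 9 h against 0.5 h kept its direction and call under every alternative run, and without each array in turn it lay between -0.42 and -0.36. At 6 h against 0.5 h it lay between -0.32 and -0.26 without each array, and it lost its call under normexp (-0.41) and median scaling (-0.20). Stmn3 at 9 h against 0.5 h lay between -0.28 and -0.15 without each array, and lost its call under normexp (-0.29), quantile scaling (-0.15, adjusted p = 0.0896 in limma), a fit of only those times (-0.22, adjusted p = 0.127 in limma) and a replicate block (-0.22, adjusted p = 0.0707 in limma). The count of members called there was then 1 under each of these 4 settings, and between 1 and 2 without each array. No member was called at 6 h against 0.5 h (0 of 5) under normexp or median scaling.

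Calls were gained with slide as a random block, which estimated a negative correlation between arrays of a slide (-0.255): Gap43 at 9 h against 0.5 h (0.17) and against 6 h (0.18), Stmn1 at 3 h against 0.5 h (-0.12) and 6 h against 3 h (-0.17), and Stmn3 at 3 h against 0.5 h (-0.13). The counts of members called were then 2 for 3 h relative to 0.5 h, and 1 each for 6 h relative to 3 h and 9 h relative to 6 h. Since each slide held arrays of only 1 time, this block cannot remove a slide effect from these differences. Median scaling called Stmn1 (-0.31), Stmn2 (-0.24) and Stmn3 (-0.33) at 9 h against 6 h, 3 members in all. The trend and robust variance model called Stmn1 at 6 h against 3 h (-0.17), 1 member. By the F test 0 members were called with normexp, 2 with cyclic loess, 3 with median scaling, 4 with the slide block, and between 1 and 2 without each array.

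Signs turned only for uncalled member differences. At 6 h against 0.5 h Gap43 was 0 with the percentile taken over averaged probes, 0.03 with cyclic loess, 0.09 with median scaling and 0.01 with quantile scaling, and lay between -0.06 and 0.04 without each array. Stmn2 was 0.04 with median and 0.05 with quantile scaling there, and Stmn3 was 0 with both. Basp1 with median scaling was 0.06 at 3 h and -0.08 at 9 h, both against 0.5 h, and -0.07 at 9 h relative to 6 h. With normexp Basp1 was -0.04 and Gap43 -0.06 at 9 h against 0.5 h, and Stmn3 was -0.08 at 6 h against 3 h. Gap43 at 9 h against 6 h was -0.02 with normexp and -0.04 with median scaling. Without each array Basp1 lay between -0.11 and 0.10 at 3 h and between -0.01 and 0.09 at 9 h, both against 0.5 h, and between -0.21 and 0 for 6 h relative to 3 h. Stmn2 lay between -0.08 and 0.01 for 9 h relative to 6 h. Stmn4 at 9 h against 0.5 h was -0.06 with median scaling and -0.03 with normexp, and lay between 0 and 0.09 without each array. Its differences at 6 h relative to 3 h and 9 h relative to 6 h lost their calls under normexp (-0.36 and 0.15), median scaling (-0.27 and 0.03), a fit of only those times and the replicate block (both -0.29 and 0.23), and ranged from -0.33 to -0.26 and from 0.20 to 0.27 without each array.

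Counts over all genes moved with normexp to 684, 1 and 422 at 3, 6 and 9 h against 0.5 h, 320 for 6 h against 3 h and 163 between 9 and 6 h. The slide block gave 13845, 9073, 16879, 7928 and 12504 in the same order. Cyclic loess gave 6457 at 6 h against 0.5 h. Without a filter 11482 and 8981 genes were called at 3 and 6 h against 0.5 h, and 4469 and 2488 with only those times fitted. With probes detected on all arrays 4515 were called at 9 h against 6 h. Without each array the counts lay between 2162 and 4061 at 6 h against 0.5 h and, for 6 h relative to 3 h, between 1648 and 3159. Of 1671 values for 62 differences of other named genes, 1371 kept direction and call, 297 lost the call and 3 turned: Sox11 at 6 h against 0.5 h (0.01) and Khsrp at 6 h against 3 h (0.16) with normexp, and Map1b at 3 h against 0.5 h (0.03) with probes averaged. The causes were not tested. Both other percentile definitions, chosen after seeing the data, kept every member call.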

Other observations

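Tmsb10 was lower at 3 h than at 0.5 h, with a difference of -0.71 (limma adjusted p = 0.00101). Nrp1, a receptor for semaphorins, was lower at 3 h than at 0.5 h, with a difference of -0.40 (limma adjusted p = 0.013). Klf7, a transcription factor of sensory neurons, was lower at 6 h than at 3 h, with a difference of -0.63 (limma adjusted p = 0.0013).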
